A study of Mus musculus with 9 samples.

Results

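A set of 10 genes with which chondrocytes build cartilage was followed in marrow stromal cells: the transcription factor genes Sox9 and Sox5, the collagen genes Col2a1, Col11a1 and Col10a1, and the matrix genes Acan, Comp, Hapln1, Matn3 and Prg4. The members of the set were taken by symbol from a table of 23358 gene entries, and all 10 of 10 were found there, each once. RNA was sequenced from mesenchymal stem cells (MSCs), which are stromal cells grown from the marrow of adult C57BL/6 mice and used at passages 4 to 10. All 9 cultures were kept for 4 days in osteogenic medium with ascorbic acid and beta-glycerophosphate, so every comparison is between cells under bone-forming and not cartilage-forming culture. Control cultures (siCTL, n = 3) received a non-targeting siRNA, a second group (GSK126, n = 3) that siRNA and 5 µM GSK126, a small-molecule inhibitor of the H3K27 methyltransferase Ezh2, and the last group (siBcat, n = 3) an siRNA against beta-catenin, the Ctnnb1 product.

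The siBcat samples carry a label conflict. Their titles and source names give no inhibitor, whereas their treatment field lists 5 µM GSK126; groups here follow the titles. The design text calls the replicates biological without naming animals or cultures. The p values thus set group differences against the spread between these samples, and what level of replication that spread covers is not known. Summed counts ran from 42324200 to 55898774 per library, and all were even, as if each fragment had been counted as 2. Adjusted p values are from edgeR's quasi-likelihood test over all genes, after Benjamini and Hochberg. Ctnnb1 had 864.2 ± 12.8 CPM (counts divided by library size after TMM scaling; SD, n = 3) in siCTL, with 926.7 ± 21.9 in GSK126 and 19.2 ± 0.114 in siBcat, 44.9-fold lower than in siCTL (adjusted p = 1.13e-15). GSK126 acts on the Ezh2 enzyme, so no transcript level here checks that treatment. In GSK126 replicate 3 a trend on coding length took up 21.4% of the variance of the deviations from the group mean, against 7.0 and 9.2% in the other GSK126 libraries and 0.1 to 0.7% in those of siCTL and siBcat, and calls of cartilage genes that change without that library are given with their value. Of 12 markers of marrow stroma, 9 stood above 10 CPM in each group, while Thy1 had 0 counts in all 9 libraries. Eng had means of 7.34, 8.48 and 7.07 CPM and Nt5e of 1.3, 0.947 and 0.854 CPM in siCTL, GSK126 and siBcat. The 9 haematopoietic markers summed to 1.84 to 2.75 CPM and the 6 endothelial ones to 1.45 to 2.26 CPM over all libraries.

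As background, cartilage forms when mesenchymal cells turn on Sox9, which with Sox5 and Sox6 drives the genes of cartilage matrix. Type II collagen, the Col2a1 product, makes the fibrils, type XI collagen, to which Col11a1 contributes a chain, sets their width, and aggrecan (Acan) is held on hyaluronan by the link protein Hapln1. Chondrocytes that enlarge before bone replaces cartilage turn on Col10a1. Ezh2 places the repressive mark H3K27me3, and beta-catenin signalling in skeletal progenitors is known to favour bone over cartilage.

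Upstream sequence could be matched for 6 of the 10 genes in RefSeq tables on GRCm38.p6. The 250 bases before the RefSeq start are shown for Col10a1 and Matn3, which were higher with GSK126, for Col11a1, whose level hardly differed, and for Acan, which stayed near the detection floor. Capitals mark matches to any of 4 motifs, searched on both strands. The core of SOX sites was searched as ACAAT and that of RUNX sites as TGTGGT. Sites of TCF/LEF factors, the partners of beta-catenin, were searched as CTTTGA, and the TATA box as TATAAA.
Col10a1, chr10:34389731-34389980, plus strand: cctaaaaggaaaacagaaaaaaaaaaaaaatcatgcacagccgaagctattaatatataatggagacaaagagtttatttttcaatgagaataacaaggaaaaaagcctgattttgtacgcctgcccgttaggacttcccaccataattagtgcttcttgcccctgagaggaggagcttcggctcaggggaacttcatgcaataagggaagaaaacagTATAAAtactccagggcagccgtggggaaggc
Matn3, chr12:8947679-8947928, plus strand: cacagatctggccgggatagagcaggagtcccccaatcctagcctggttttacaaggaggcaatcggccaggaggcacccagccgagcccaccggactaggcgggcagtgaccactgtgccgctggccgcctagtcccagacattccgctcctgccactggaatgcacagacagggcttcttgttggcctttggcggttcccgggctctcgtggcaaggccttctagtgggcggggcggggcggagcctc
Col11a1, chr3:114030290-114030539, plus strand: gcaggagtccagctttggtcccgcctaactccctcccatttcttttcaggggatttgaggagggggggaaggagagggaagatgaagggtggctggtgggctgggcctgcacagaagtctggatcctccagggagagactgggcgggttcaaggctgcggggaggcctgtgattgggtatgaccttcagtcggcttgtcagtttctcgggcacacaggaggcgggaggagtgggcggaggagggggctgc
Acan, chr7:79052976-79053225, plus strand: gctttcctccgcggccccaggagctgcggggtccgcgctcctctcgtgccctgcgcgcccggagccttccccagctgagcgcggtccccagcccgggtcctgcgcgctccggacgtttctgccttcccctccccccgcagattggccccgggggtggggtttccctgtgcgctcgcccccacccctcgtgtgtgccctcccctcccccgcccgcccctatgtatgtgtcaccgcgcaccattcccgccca
The windows differ in their number of CpG dinucleotides, which CpG islands are rich in. Col10a1 had 5, Col11a1 7, Matn3 14 and Acan 26, against a median of 6 over 32851 windows of that length, and 90.4% of windows had fewer than that of Acan. The only match in these 4 windows was the TATA box of Col10a1, at 32 to 27 bases before its start; 12.4% of all windows hold that motif. The SOX core occurs in 27.7%, the RUNX core in 14.0% and the TCF/LEF core in 13.8% of all windows, and none of these was found in the 4 shown. Of the other 2 matched windows, that of Hapln1 held 1 SOX and 1 RUNX core. It had 2 CpG dinucleotides, and 18.8% of windows had fewer, although Hapln1 stayed near the detection floor as Acan did. The Hapln1 window spans 89540386 to 89540635 on the plus strand, inside the gene as GENCODE M21 gives it (chromosome 13, 89539796 to 89611652). These cores were thus not shown to lie before the GENCODE start. The Sox5 window (143947107 to 143947356, minus strand) lies inside the gene as GENCODE M21 gives it (chromosome 6, 143828425 to 144781977), before an internal RefSeq start, and is not described further.

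Levels between genes are compared as the authors' RPKM, which divides by gene length. In siCTL, Col10a1 was highest at 13.5 ± 1.07 RPKM (SD, n = 3). Col11a1 (5.19 ± 0.177) and Sox9 (4.93 ± 0.545) followed and their libraries overlapped, then came Col2a1 at 3.41 ± 0.6, Prg4 at 1.6 ± 0.0983, Sox5 at 1.01 ± 0.0425 and Matn3 at 0.233 ± 0.0873. The gene for hypertrophic cartilage collagen thus stood above that for the fibrillar collagen of cartilage in control MSCs. For scale, Col10a1 lay above 80.1% of all entries, Sox9 above 66.2% and Col2a1 above 62.5%, with 30.0% of entries at 0. The bone collagen gene Col1a1 had 1349.9 to 1879.8 RPKM in siCTL, and Col2a1 0.2 to 0.201% of that. In every group Comp, Acan and Hapln1 were the lowest 3.

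Those 3 were near the detection floor, taken as a mean under 0.5 CPM in every group or failing the filter on low counts. A floor of 3 fragments, or 6 counts per library, corresponds to 0.107 to 0.142 CPM here. Hapln1, the link protein gene, had 2 counts in siCTL replicate 3 and in GSK126 replicate 2 and 0 in the other 7 libraries. Acan, the main cartilage proteoglycan gene, had 0, 4 and 0 counts in the siCTL libraries. Its GSK126 libraries had 8, 6 and 10, those of siBcat 2, 2 and 0. The 3 GSK126 libraries lay above the other 6, but Acan failed the filter and was not tested, and without a filter its adjusted p was 0.211 for GSK126 and 1 for siBcat against siCTL (edgeR). Comp, a pentameric matrix protein gene also active in tendon, had 6, 6 and 12 counts in siCTL libraries, 18, 12 and 10 with GSK126 and 8, 10 and 6 with siBcat. Its groups overlapped, and its difference from siCTL was 0.58 (log2; 95% interval -0.40 to 1.56, adjusted p = 0.374) with GSK126 and 0.01 (-1.06 to 1.08, adjusted p = 0.994) with siBcat, so the intervals leave room for a 2-fold rise in both comparisons and, with siBcat, for a 2-fold fall. That direction for siBcat turned under 6 alternatives. Hapln1 had 0 counts in all 3 siBcat libraries, which puts it under the floor of 6 counts per library and does not show absence.

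**Figure D1:**
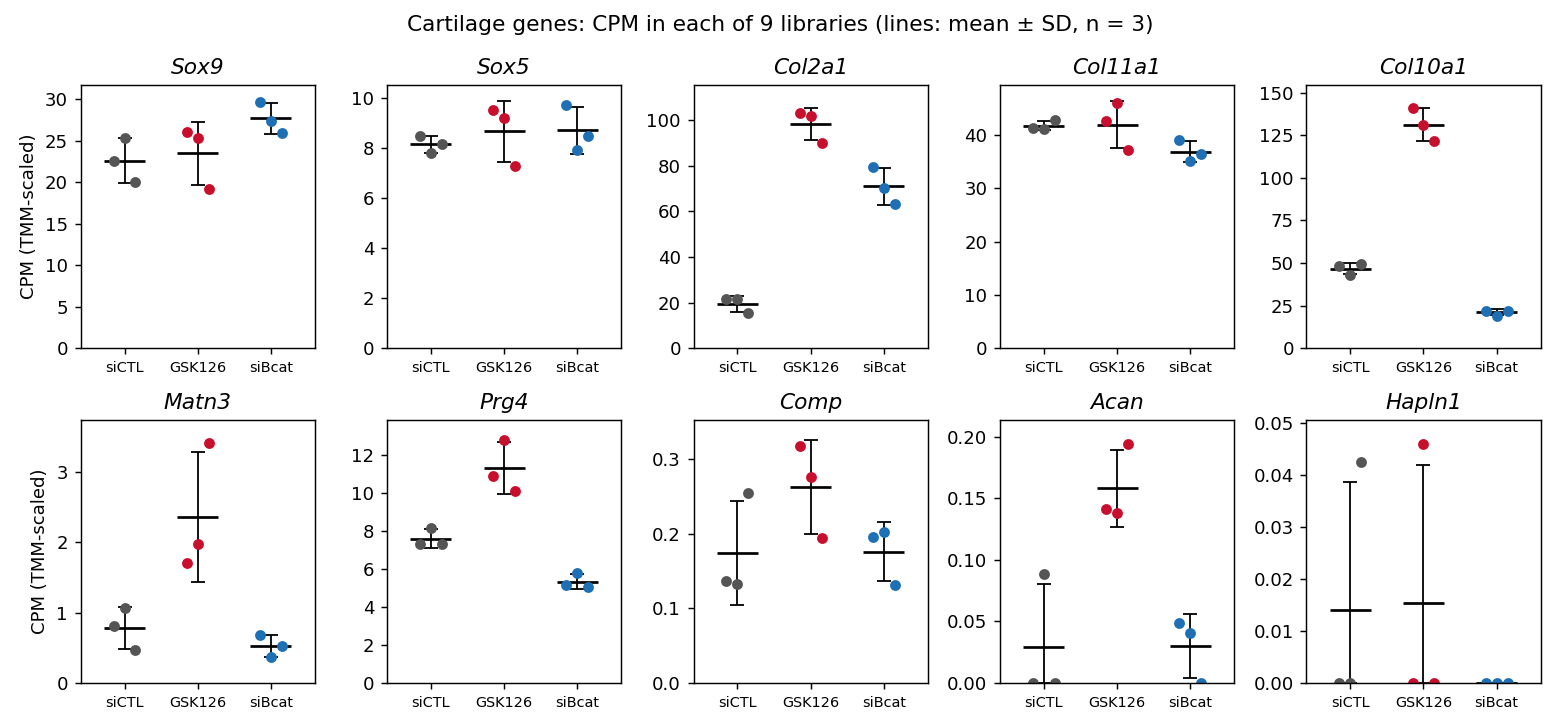
CPM after TMM scaling of each of the 10 genes (vertical axes, from 0, with a scale of its own per gene) in the 3 siCTL, 3 GSK126 and 3 siBcat libraries; dots are libraries in replicate order, lines the mean and bars the SD (n = 3), with the lower bar stopped at 0. Col2a1 is above siCTL in both treated groups, Col10a1 above it in GSK126 and below it in siBcat, and Hapln1 has no library above 0.0459 CPM.

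The comparison of GSK126 with siCTL asks which genes change when Ezh2 is inhibited. Of the 10 cartilage genes, 8 passed the filter, 4 of these rose (Col2a1, Col10a1, Matn3 and Prg4), 0 fell and 4 did not pass the threshold of an adjusted p of 0.05. Over all 13240 genes tested, 14.3% were called higher and 25.0% in either direction. The median log2 fold change of the 8 was 0.57, and 0.01 over all genes. Libraries of GSK126 and siCTL were apart for 4 of the 8, a share near the 42.1% of all genes. The rise was at least 2-fold for 3 of the 8, a rise called for 2.27% of all genes, and such a fall was called for 0 of the 8 and 0.446% of all genes. All 4 kept their call and direction in each of the 20 alternatives.

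Among the regulators, Sox9 (chromosome 11, 112782224 to 112787760, plus strand, GRCm38) had 22.6, 25.3 and 20 CPM in siCTL and 26.1, 25.3 and 19.2 CPM in GSK126. The groups overlapped throughout, and the log2 difference was 0.05 (SE 0.12; 95% interval -0.20 to 0.31, adjusted p = 0.763). Sox5, a partner of Sox9 without an activation domain of its own, had 8.5, 7.8 and 8.19 CPM in siCTL against 9.54, 9.23 and 7.29 CPM in GSK126, a difference of 0.09 (SE 0.12; 95% interval -0.16 to 0.34, adjusted p = 0.609). For both genes GSK126 replicate 3 was the lowest library of its group. The upper limits of both intervals lie below the estimate for each of the 4 genes that rose. Without that library the differences were 0.18 for Sox9 (adjusted p = 0.118) and 0.20 for Sox5 (adjusted p = 0.175). The sign for Sox9 turned without siCTL replicate 3 (-0.03), GSK126 replicate 1 (-0.04) or GSK126 replicate 2 (-0.0028).

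Col2a1 (chromosome 15, 97975602 to 98004695, minus strand) showed the largest difference of the 8. It had 21.6, 21.4 and 15.2 CPM in siCTL and 103.1, 101.6 and 90.1 CPM in GSK126, so each treated library stood far above each control. The rise was 5.07-fold (log2 fold change 2.34, SE 0.13, adjusted p = 1.23e-06). Col11a1, whose chain joins type II collagen in the same fibrils, had 41.3, 41.2 and 42.8 CPM in siCTL and 42.7, 46.1 and 37.2 CPM in GSK126. Here the groups overlapped, with a difference of 0.01 (SE 0.08; 95% interval -0.16 to 0.17, adjusted p = 0.951), whose sign turned under 9 alternatives. Per length, Col2a1 went from 0.504 to 0.74 times the level of Col11a1 in siCTL libraries to 3.12 to 3.43 times in GSK126 libraries.

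Col10a1 stood at 48, 42.8 and 49.2 CPM in siCTL and at 141.2, 131.3 and 121.5 CPM in GSK126, again with no overlap. It rose 2.81-fold (log2 fold change 1.49, SE 0.08, adjusted p = 8.63e-08). Matn3 (chromosome 12, 8947929 to 8972028, plus strand), a matrilin gene of growth cartilage, had 0.814, 1.06 and 0.467 CPM in siCTL and 1.7, 1.97 and 3.41 CPM in GSK126, with replicate 3 above the other two. Its rise was 3.03-fold (1.60, SE 0.34, adjusted p = 0.00439), and 1.23 on the log2 scale without that replicate (adjusted p = 0.00555). Prg4 encodes lubricin, which coats the joint surface. It went from 7.33, 8.15 and 7.3 CPM in siCTL to 10.9, 12.8 and 10.1 CPM in GSK126, a 1.48-fold rise (0.57, SE 0.11, adjusted p = 0.00211).

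Genes that overlap Col10a1 and Prg4 were read with them. Col10a1 (chromosome 10, 34389981 to 34397085, plus strand, GENCODE M21) lies inside Nt5dc1 on the minus strand, and they share 18 exonic bases; Nt5dc1 differed by 0.10 (adjusted p = 0.309) with GSK126. Prg4 (chromosome 1, 150449412 to 150466165, minus strand) shares 204 exonic bases, 4.77% of its own, with Tpr on the plus strand, which fell by 0.34 on the log2 scale (adjusted p = 0.00238). Sox5 shares 1330 exonic bases, 9.25% of its own, with the antisense gene Sox5os1, which has no entry among those counted. Whether the counting used strand is not given in the sources used here.

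Markers of fat cells moved with these rises. Over all genes 14.3% were called higher with GSK126, and 17.7% higher and 17.5% lower with siBcat. Of 8 adipocyte markers in the table, 7 were tested and 7 rose with GSK126, with a median of 3.02, and 1, Lep, was at 0 in all libraries. With siBcat, Adipoq, Fabp4, Cidec and Lpl fell, Pparg rose, and Plin1 and Cfd did not pass the threshold. The fall of Cidec ended without siBcat replicate 2 (0.0642). The rise of Pparg ended without siCTL replicate 2 (0.0694) or siBcat replicate 1 (0.0652), and with library size only (0.0519). The 8 markers summed to 1851.6 to 1925.2 CPM in siCTL, 2293.4 to 2502.8 in GSK126 and 1210.7 to 1285.6 in siBcat. Lpl made up most of this, with means of 1772.4, 2142.3 and 1141.8 CPM in that order. Of 6 smooth muscle markers, 3 rose with GSK126 and 4 with siBcat, and they summed to 1400.7 to 1477.0, 2067.9 to 2385.2 and 2660.6 to 2827.6 CPM in the same order. The part of these markers in the cartilage results was not tested, and in bulk RNA more cells of a type and more RNA per cell cannot be told apart.

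The comparison of siBcat with siCTL asks what follows when beta-catenin is depleted, and it uses the same 3 control libraries as the one above. Of the 8 cartilage genes tested, 1 rose (Col2a1), 2 fell (Col10a1 and Prg4) and 5 did not pass the threshold. Over all genes tested 17.7% were called higher and 17.5% lower, 35.2% together, so a count of 3 in 8 is near the background. The median log2 fold change of the 8 was -0.09, and 0.00 over all genes. Libraries did not overlap for 5 of the 8, against 55.2% of all genes. A change of at least 2-fold was called for Col2a1 (higher, as for 2.00% of all genes) and Col10a1 (lower, as for 2.55%).

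Col2a1 rose here too, to 79.4, 70.3 and 63.2 CPM in siBcat. Every siBcat library was above the highest control, and the rise was 3.66-fold (log2 fold change 1.87, SE 0.13, adjusted p = 2.29e-06). Col10a1 went the other way, to 21.9, 19 and 22.1 CPM, below all controls. It fell by 1.15 on the log2 scale, or 2.22-fold (SE 0.08, adjusted p = 3.79e-07). Nt5dc1, the gene around it, fell as well, by 0.56 (adjusted p = 4e-05), and its part in the Col10a1 value was not tested. Prg4 fell by 0.51 (SE 0.11, adjusted p = 0.00352), or 1.42-fold, to 5.16, 5.79 and 5.03 CPM, also with no overlap. Tpr, which overlaps Prg4, fell by 0.21 (adjusted p = 0.0223), a call that ended without siCTL replicate 1 or 3 (0.0748 and 0.0706) or siBcat replicate 1 or 3 (0.0824 and 0.0813). The calls of Col2a1, Col10a1 and Prg4 were kept in each of the 20 alternatives.

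Sox9 had 29.7, 27.4 and 26 CPM in siBcat, all above the highest control of 25.3. Its difference of 0.29 (SE 0.12; 95% interval, unadjusted, 0.04 to 0.55) did not pass the threshold (adjusted p = 0.0732). It did in 5 alternatives: without GSK126 replicate 3 (0.00387), with only the 2 groups compared (0.00718), with the trend on coding length removed (0.0107), with a replicate block (0.0212) and with upper-quartile scaling (0.0458). Sox5, at 9.74, 7.93 and 8.49 CPM, overlapped its controls, with a difference of 0.09 (95% interval -0.16 to 0.35, adjusted p = 0.575). Col11a1, at 39.1, 35.2 and 36.4 CPM, lay below all controls, yet the difference of -0.18 (SE 0.08, adjusted p = 0.0861) missed the threshold. It passed with only the 2 groups compared (0.00705), with scaling by library size alone (0.0321) and without GSK126 replicate 3 (0.00878). Matn3, at 0.682, 0.364 and 0.525 CPM, overlapped siCTL, with a difference of -0.58 (95% interval -1.45 to 0.28, adjusted p = 0.282).

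**Figure D2:**
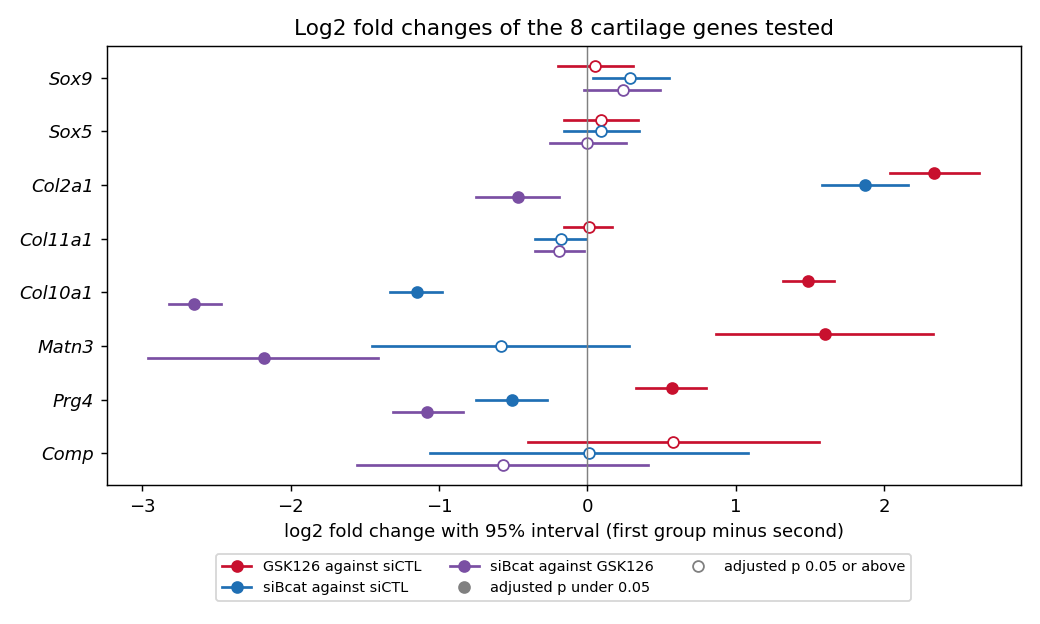
Log2 fold changes (horizontal axis) with 95% intervals, not adjusted for the number of genes, of the 8 genes tested, for GSK126 against siCTL, siBcat against siCTL and siBcat against GSK126; filled dots have an adjusted p under 0.05. Col2a1 lies right of 0 in both comparisons with siCTL (2.34 and 1.87), whereas Col10a1 lies at 1.49 for GSK126 and -1.15 for siBcat.

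Set directly against GSK126, 4 of the 8 cartilage genes were lower in siBcat and 0 higher, with 21.9% of all genes called lower and 41.2% in either direction. The 8 had a median of -0.52, against -0.01 over all genes. Col10a1 was 6.26-fold lower (-2.65, SE 0.08, adjusted p = 3.97e-10), Matn3 4.54-fold (-2.18, SE 0.36, adjusted p = 0.000352) and Prg4 2.11-fold (-1.08, SE 0.11, adjusted p = 6.9e-06). Col2a1, higher than in siCTL in both groups, was 1.39-fold lower in siBcat than in GSK126 (-0.47, SE 0.12, adjusted p = 0.0118). Libraries were apart for 4 of the 8, a share near the 52.5% of all genes. A difference of at least 2-fold was called lower in siBcat for 3 of the 8 and for 4.21% of all genes, and higher for 0 of the 8 and for 1.81% of all genes. Sox9 (0.24, adjusted p = 0.127, and 0.11 without GSK126 replicate 3), Sox5 (0.00, adjusted p = 0.985), Col11a1 (-0.19, adjusted p = 0.0656) and Comp (-0.57, adjusted p = 0.338) did not pass. Of these, Sox9 passed with the length trend removed (0.0182) and a replicate block (0.0381), and Col11a1 without GSK126 replicate 3 (0.000858), with the length trend removed (0.0104), library size only (0.0112) and upper-quartile scaling (0.0359).

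The balance of the hypertrophic and the fibrillar collagen gene differed in each group. Per length, Col10a1 was 3.65, 3.28 and 5.3 times Col2a1 in the siCTL libraries, 2.24, 2.12 and 2.21 times in GSK126, and 0.451, 0.444 and 0.574 times in siBcat. On the log2 scale the means were 1.99 ± 0.36, 1.13 ± 0.04 and -1.04 ± 0.21 (SD, n = 3), and no libraries of different groups overlapped. The two-sided exact permutation test gave p = 0.10 for each pair of groups, the smallest it can give with 3 against 3. Within the summed RPKM of the 10 genes, Col10a1 made up 41.4 to 48.4% in siCTL, 53.0 to 55.1% in GSK126 and 18.0 to 21.3% in siBcat, and Col2a1 9.1 to 12.6, 24.5 to 25.0 and 37.1 to 40.9%. The order of levels changed with it: Col2a1, 4th in siCTL, was 2nd in GSK126 and 1st in siBcat, where Col10a1 (5.92 ± 0.484 RPKM) and Sox9 (5.89 ± 0.373) overlapped below it. In siBcat Prg4 and Sox5 overlapped as well, as did Sox5 and Matn3, and Col11a1 and Sox9, in GSK126.

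**Figure D3:**
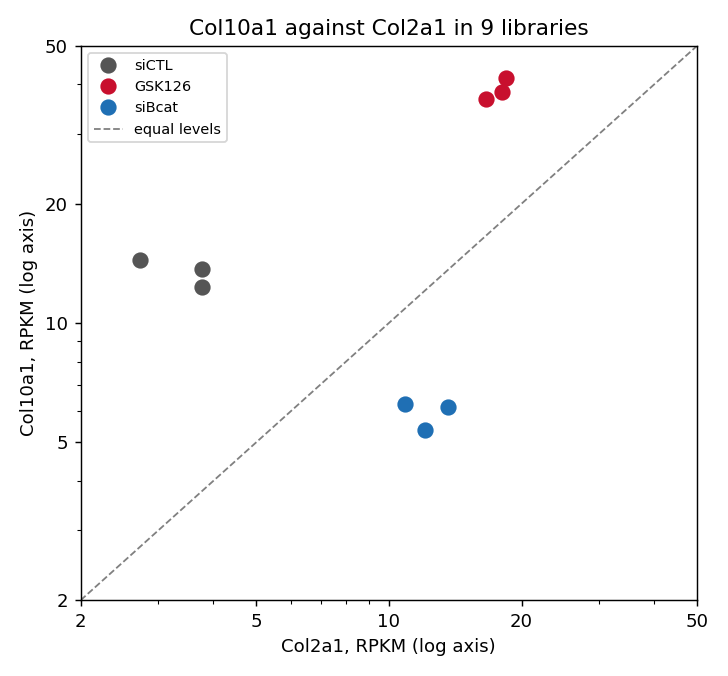
The authors' RPKM of Col10a1 (vertical, log axis) against that of Col2a1 (horizontal, log axis) in the 9 libraries, coloured by group, with a dashed line of equal levels. The siCTL and GSK126 libraries lie above the line, at ratios of 2.12 to 5.3, and the 3 siBcat libraries below it, at 0.444 to 0.574.

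The genes whose levels followed each cartilage gene most closely were sought by Pearson r of log2 CPM over the 9 libraries. Of 11456 tested genes that averaged 1 CPM or more, predicted genes (such as Gm, Rik and LOC names) and repeated symbols were left out of the ranking. The libraries fall into 3 groups, and all genes of a library share its depth. Thus r can follow the group pattern or the scatter within groups. For Col10a1 they were the receptor tyrosine kinase gene Kit (0.996), the monooxygenase gene Fmo1 (0.996) and the chemokine gene Cxcl12 (0.994). The log2 fold changes of Kit were 1.34 with GSK126 and -1.20 with siBcat, beside 1.49 and -1.15 for Col10a1. For Col2a1 they were Ptk2b (0.991), a focal adhesion kinase relative, the sterol enzyme gene Sqle (0.989) and Fgfrl1 (0.984), with log2 fold changes of 0.59, 0.22 and 0.84 with GSK126 and 0.51, 0.19 and 0.56 with siBcat, beside 2.34 and 1.87 for Col2a1. For Prg4 they were the nuclear envelope gene Tmpo (0.992), Phka2 (0.987) and the interferon gamma receptor gene Ifngr1 (0.984), and for Matn3 Tspo (0.975), Nuak2 (0.973) and Aldh16a1 (0.973). Tspo rose by 0.41 with GSK126, a call that ended without GSK126 replicate 3 (adjusted p = 0.11, edgeR). Sox9 went most with Anks6 (0.954), Plxnb2 (0.951) and Cyp1b1 (0.932), Sox5 with Psd3 (0.939), Ybey (0.934) and Git2 (0.933), and Col11a1 with Plag1 (0.968), Rfxank (0.961) and Zfp568 (0.955). Sox5 differed from siCTL by 0.09 with either treatment, and Git2 by -0.00 with GSK126 and 0.03 with siBcat. The r of Sox5 and Git2 thus cannot be read as a group pattern. Among the cartilage genes themselves, Col10a1 ran with Prg4 (0.96) and Matn3 (0.87), whereas its value with Col2a1 was 0.26 and that of Sox9 with Col2a1 0.40.

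Other genes of the cartilage programme were read from 5 lists. Their counts of calls stand beside 14.3% of all genes called higher and 10.7% lower with GSK126. With siBcat these shares were 17.7 and 17.5%, and counts near them are not read as results about a list. Of 11 further regulators, 10 were tested; 1 fell with GSK126, and 1 rose and 3 fell with siBcat (medians -0.10 and -0.20). With siBcat, the forkhead gene Foxc1 fell by 0.45 (SE 0.05), Runx2, needed for bone and for hypertrophic cartilage, by 0.30 (SE 0.08) and Nkx3-2 by 1.41 (SE 0.41), while Nfatc1 rose by 0.30 (SE 0.07). Nkx3-2, which stood at 0.631 CPM in siCTL, was not past the threshold without siCTL or siBcat replicate 2 (0.0801 and 0.0771). Trps1, the gene that fell with GSK126 (-0.36, SE 0.11), was not past it without siCTL replicate 1, 2 or 3 (0.056, 0.0614 and 0.105) or with only the 2 groups compared (0.0504). Sox6, which acts with Sox5, had 0 to 6, 4 to 14 and 0 to 2 counts in siCTL, GSK126 and siBcat and was not tested.

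Of 12 growth plate signalling genes, 6 were tested and the other 6, among them Ihh, Pthlh and Gdf5, had at most 10 counts in any library (medians of the 6 tested 0.03 with GSK126 and 0.13 with siBcat). The hedgehog effector gene Gli1 rose in both treated groups, by 1.51 (SE 0.40) with GSK126 and 1.27 (SE 0.41) with siBcat, from 0.206 to 0.587 and 0.498 CPM. Neither call held without siCTL replicate 1 (0.0544 and 0.0863) or 3 (0.0685 and 0.108), nor without GSK126 replicate 1 (0.0567) or, for siBcat, its replicate 1 (0.0772) or 2 (0.111). The natriuretic peptide receptor gene Npr2 rose by 0.16 (SE 0.05) with siBcat, a call that ended without siCTL replicate 2 or 3 (0.0601 and 0.0637) or siBcat replicate 1 or 3 (0.0955 and 0.0623), with library size only (0.0597) and with no filter (0.0538). Fgfr3, which restrains growth cartilage, differed by -0.04 (SE 0.19) and 0.35 (SE 0.18).

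Of 20 other cartilage matrix genes in the table, 10 were tested, and several genes typical of hyaline cartilage stayed low: Matn1 had at most 4 counts per library, Col9a2 2 and Epyc 2, and Col9a1 at most 28. With GSK126, 3 of the 10 rose and 3 fell (median 0.47). The small leucine-rich proteoglycan genes Prelp and Fmod rose by 1.87 (SE 0.23) and 1.11 (SE 0.17), while the matrilin gene Matn2 fell by 0.54 (SE 0.05) and Vcan, a hyaluronan-binding proteoglycan gene, by 0.76 (SE 0.16). The other 2 calls were weak: the fibrillar collagen gene Col27a1 (1.09, SE 0.29) lost it without siCTL replicate 3 (0.0656) or GSK126 replicate 2 (0.0527), and Mgp (-0.29, SE 0.08) without siCTL replicate 1 or 3 (0.0598 and 0.0639) or GSK126 replicate 1 (0.0548), with library size only (0.0527) and with only the 2 groups compared (0.0529). With siBcat, 1 rose and 4 fell (median -0.15), among them Matn2 (-1.43, SE 0.05), Mgp (-0.77, SE 0.08), an inhibitor of calcification, and Chad (-1.47, SE 0.38), the chondroadherin gene. Prelp (0.70, SE 0.25) and Fmod (-0.54, SE 0.19) were the other 2 called. Each lost its call without siCTL replicate 1 or 3, GSK126 replicate 1 or any one siBcat replicate, with an adjusted p of up to 0.166 for Prelp and 0.138 for Fmod, and with halved counts (0.064 and 0.0525) and limma-voom (0.0975 and 0.086). Fmod lost it also with a replicate block (0.0673) and with only the 2 groups compared (0.0572). Matn2 thus moved opposite to Matn3 under GSK126, at a far higher level of 242.5 CPM in siCTL.

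All 17 genes for chondroitin sulfate and hyaluronan synthesis were tested. With GSK126, 2 rose and 6 fell (median 0.07), and with siBcat 6 rose and 3 fell (0.09). Papss2, which makes the sulfate donor, rose by 0.77 (SE 0.09) and 0.96 (SE 0.09), and the hyaluronan synthase gene Has2 by 0.96 (SE 0.12) and 1.87 (SE 0.12). The sulfotransferase genes Chst15 (-0.28 and -0.82) and Chst3 (-1.12 and -1.13) fell in both comparisons. Csgalnact1, which starts chondroitin chains, fell by 0.30 (SE 0.06) with GSK126 and rose by 0.61 (SE 0.06) with siBcat, and directly it was higher in siBcat than in GSK126 by 0.91 (SE 0.06, adjusted p = 1.58e-07). Some calls of this list hung on single libraries. With GSK126, Xylt1 lost its fall without siCTL replicate 3 (0.0511). With siBcat, Csgalnact2 lost its rise without siCTL replicate 1 (0.0532), and Chpf without GSK126 replicate 3 (0.063), with no filter (0.0674) and with only the 2 groups compared (0.102). Xylt2 lost its fall without siCTL replicate 1 or 2 (0.0751 and 0.0774) or siBcat replicate 2 or 3 (0.0607 and 0.0732).

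Of 9 genes of hypertrophy and cartilage breakdown, 8 were tested. With GSK126, 2 rose and 4 fell (median -0.29), and with siBcat 3 rose and 2 fell (0.06). Ibsp, a bone sialoprotein gene also on in late hypertrophy, rose by 2.16 (SE 0.40) with GSK126, from 0.189 to 0.859 CPM, as Col10a1 did, whereas Spp1 (-0.85, SE 0.06), the angiogenic factor gene Vegfa (-0.55, SE 0.05) and the aggrecanase gene Adamts4 (-0.91, SE 0.08) fell. Htra1 fell with GSK126 as well (-0.49, adjusted p = 8.48e-05). With siBcat the collagenase gene Mmp13 rose by 1.06 (SE 0.07) and Spp1 by 0.54 (SE 0.06), and the protease gene Htra1 fell by 0.81 (SE 0.06). The third rise, of Vegfa (0.15, SE 0.05), ended without siCTL replicate 2 or 3 (0.1 and 0.0895), without siBcat replicate 1, 2 or 3 (0.11, 0.0864 and 0.0639), with library size only (0.11) and with no filter (0.0639). The mineralisation enzyme gene Alpl went the way of Col10a1, with 0.54 (SE 0.10) for GSK126 and -0.29 (SE 0.10) for siBcat, though the second call ended without siCTL replicate 1 or 2 (0.0743 and 0.13) or siBcat replicate 2 or 3 (0.12 and 0.0918). In each comparison, then, genes of this list were called in both directions.

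**Figure D4:**
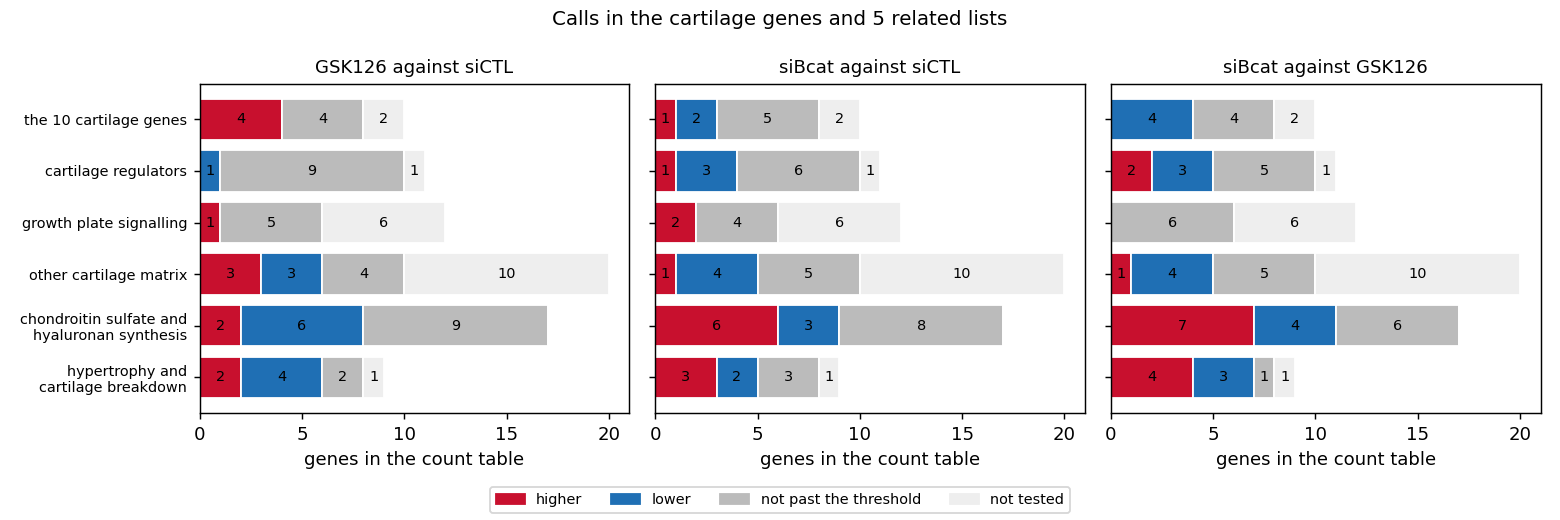
Number of genes (horizontal axis) called higher, called lower, not past the threshold and not tested, for the 10 cartilage genes and 5 related lists (rows), in the 3 comparisons. With GSK126, 4 of the 10 cartilage genes are higher and 0 lower, and among the chondroitin sulfate and hyaluronan genes 2 are higher and 6 lower. Over all genes tested, 14.3% were called higher and 10.7% lower with GSK126.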

How the data were processed

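RNA was measured in 9 libraries, 3 in each of 3 groups, grouped by their titles. The authors deposited read counts per gene and RPKM values in 1 table, per the file headers; the submitters' processing notes name bcl2fastq, TopHat2 2.0.6, HTSeq and mm10, and whether strand was used is not given in the sources used here. Of its columns, 6 match none of the samples given and were not used here.

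Counts were fitted as deposited with edgeR 4.0.16 in R 4.3.3 (TMM scaling, filterByExpr with a minimum count of 10, robust quasi-likelihood test, all 9 libraries, no block), which kept 13240 of 23358 entries, and adjusted by Benjamini and Hochberg with a threshold of 0.05. RPKM was used only to compare genes and for ratios. Each comparison was refitted under 20 alternatives, among them DESeq2 1.42.0, limma-voom (limma 3.58.1) and each library left out in turn. Totals of 42324200 to 55898774 counts per library put 3 fragments at 0.107 to 0.142 CPM. Gene positions are from GENCODE M21 on GRCm38, upstream sequences from RefSeq.

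The members and all lists were chosen with earlier results of these data known. The rule was to name all 10 members, label checks, up to 4 genes per list with the smallest adjusted p per treatment, all of a list with 5 or fewer calls, and the 3 genes most like each member. It was not followed throughout. Called smooth muscle markers, most stromal ones and the adipocyte ones with GSK126 are given only as counts. Ugdh is not named, and some genes are named outside the rule. Nt5dc1, Tpr, Sox6, Fgfr3, Col1a1, and the untested genes given by their counts were added after their values were seen.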

Additional observations from a re-analysis of the deposited data

How the results depend on the processing

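Over 20 alternatives per comparison, the calls of Col2a1, Col10a1 and Prg4 in all 3 comparisons, and of Matn3 for GSK126 against siCTL and siBcat against GSK126, kept direction and threshold. The number of the cartilage genes called for siBcat against siCTL went from 3 to 5 with only the 2 groups compared and to 5 without GSK126 replicate 3, with Sox9 and Col11a1 added; the cause was not tested. With 1 library left out, it ran from 3 to 5 for siBcat against siCTL, stayed at 4 for GSK126 against siCTL and ran from 4 to 5 for siBcat against GSK126. Over all genes the same ranges were 3613 to 6320, 2337 to 3844 and 4417 to 6318. The main fits called 4666, 3311 and 5450 genes (35.2, 25.0 and 41.2% of those tested). Calls over all genes thus also rose in some fits, and the gain of Sox9 and Col11a1 is not read as particular to them.

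Signs turned only where no call was made. For GSK126 against siCTL, Col11a1 was -0.0031 with DESeq2 size factors, -0.0032 with DESeq2, -0.0021 with no filter and -0.01 with only the 2 groups, and ran from -0.07 to 0.09 over the fits without 1 library; Sox9 ran from -0.04 to 0.18. For siBcat against siCTL, Comp was -0.03 with library size only and -0.00061 with no filter, and ran from -0.17 to 0.39; Sox5 ran from -0.0029 to 0.16. For siBcat against GSK126, Sox5 was -0.06 with library size only and -0.01 with upper-quartile scaling, and ran from -0.11 to 0.08.

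Of 472 refits of cartilage genes, 435 kept sign and side of the threshold, 14 passed it newly and 23 turned sign; 199 of 3707 refits of the other genes named or listed lost a call. Of the calls over all genes for GSK126 against siCTL, 57.1% were higher, but 40.8% with the length trend removed. For siBcat against GSK126 the share was 46.8%, and 33.3% with library size only and 60.0% with the trend removed.

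Same-numbered libraries did not deviate together (r from -0.03 to 0.07), so numbers were not taken as pairs. With a replicate block the calls over all genes were 4514 in place of 4666 for siBcat against siCTL, 3135 in place of 3311 for GSK126 against siCTL and 5267 in place of 5450 for siBcat against GSK126; with the block Sox9 passed in siBcat against both other groups (0.0212 and 0.0381). Low counts left Acan and Hapln1 untested, and Comp with only the wide intervals given above.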

Other observations

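Markers of neighbouring skeletal tissues were also measured. Their calls stand beside 25.0% of all genes called with GSK126 and 35.2% with siBcat, in either direction. Of 10 osteoblast markers, 8 were tested; with GSK126 Ibsp and Alpl rose and Dmp1 and Phex fell (median 0.02), and with siBcat Dmp1 rose and Runx2, Alpl and Phex fell (median -0.30). The rise of Dmp1 ended without siCTL replicate 2 (0.0982) or siBcat replicate 1 or 3 (0.0705 and 0.093), and the fall of Alpl without any of 4 libraries, with an adjusted p of up to 0.13. Of 7 tendon and ligament markers, 4 were tested: Egr1 and Fmod rose with GSK126, and with siBcat Mkx rose and Fmod fell. The call of Egr1 ended without siCTL replicate 3 (0.0632) and with only the 2 groups compared (0.0568), that of Mkx without siCTL replicate 1 or 2 (0.062 and 0.0745) or siBcat replicate 1 (0.107) and with library size only (0.0536), and that of Fmod for siBcat under 10 alternatives, with an adjusted p of up to 0.138. Thbs4 and Kera were at 0 in all libraries. Of 12 marrow stromal markers, 11 were tested, with 3 called higher and 3 lower with GSK126 and 2 higher and 4 lower with siBcat. Of these, Col1a2 lost its call without siCTL replicate 1 or 2 (0.0913 and 0.0672) or siBcat replicate 2 or 3 (0.0826 and 0.0651). Of 3 haematopoietic and 2 endothelial markers tested, 0 were called with GSK126, and with siBcat Lyz2, Cd74 and Kdr were called higher and Cd68 and Vwf lower. Lyz2 was near the detection floor, with a mean under 0.5 CPM in every group, 0 to 4 counts in siCTL and 12 to 24 in siBcat. The calls of Cd74, Cd68 and Vwf ended in 4 alternatives each. For Cd74 these were without siCTL replicate 2 or 3 (0.106 and 0.0742) or siBcat replicate 2 or 3 (0.0714 and 0.1), for Vwf without siCTL replicate 2 or 3 (0.097 and 0.0945) or siBcat replicate 1 or 2 (0.0868 and 0.114), and for Cd68 without siCTL replicate 3 (0.154) or siBcat replicate 1 or 3 (0.118 and 0.0764) and with a replicate block (0.0525).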
